A study of Mus musculus with 10 samples.

Results

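Mural cells were described in 3 whole-enthesis libraries. The enthesis is the attachment of a tendon to bone, here that of the supraspinatus at the mouse shoulder. Members were chosen by measured counts, and a cell was taken as mural when it had at least 500 detected genes, at most 10% of its counts in mitochondrial genes, and 2 or more UMIs (unique molecular identifiers, counted transcript molecules) of at least 2 of the 5 genes Rgs5, Notch3, Kcnj8, Abcc9 and Myh11. It also had to hold no UMI of Ptprc (leukocytes), Cdh5 (endothelium) or Tnmd (tendon fibroblasts). Of 13479 cells that passed the gene and mitochondrial limits, 207 (1.54%) met this rule. They are called members below, and the values of the 5 genes that selected them are given as description only.

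The cells were isolated from pooled entheses of C57BL/6 wild-type animals aged 11, 18 or 56 postnatal days (P11, P18, P56) and profiled in 10x Genomics droplets. The labels' protocols state that red blood cells were lysed and that the sort kept cells negative for Cd45, a leukocyte protein, and for DAPI, which stains dead cells. With 1 library per age and no number of mice given, differences between ages have no test, and intervals cover counting error only. A further 7 plates of 96 wells, titled as Gli1 lineage and made from GliCreERT;Ai14 mice at postnatal day 7, 11, 14, 18, 21, 28 and 42 (1 plate each), were searched with the same rule. In such mice a tamoxifen-activated recombinase under Gli1 control switches on a red fluorescent protein.

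Mural cells wrap blood vessels. Smooth muscle cells surround arterioles and larger vessels and contract through smooth muscle actin and myosin, while pericytes lie on capillaries inside the shared basement membrane. Endothelial cells recruit and keep both through platelet-derived growth factor B acting on the receptor Pdgfrb, and through the Notch ligand Jag1 acting on the receptor Notch3. Rgs5 limits G protein signalling, Kcnj8 and Abcc9 are the 2 subunits of the vascular ATP-sensitive potassium channel, and Myh11 is the smooth muscle myosin heavy chain.

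Members made up 36 of 2952 kept cells at P11, or 1.22% (95% exact Clopper-Pearson interval 0.856 to 1.68). The P18 library had 1 member among 5396 kept cells (0.0185%, 0.000469 to 0.103), and the P56 library 170 among 5131 (3.31%, 2.84 to 3.84). The intervals of the 3 libraries did not overlap. Thinning every cell to 2000 UMIs left 25 of 2888 cells at P11 (0.866%), 0 of 5071 at P18 (at most 0.0727%) and 85 of 4917 at P56 (1.73%). With at least 3 of the 5 genes required, the shares were 1.05%, 0 and 1.715%, and the P11 and P56 intervals overlapped (0.715 to 1.49 and 1.38 to 2.11). Under stricter cell limits (1000 genes or more, mitochondrial share of 5% or less), the shares were 0.302% at P11 (3 cells) and 0.715% at P56 (25 cells), and these intervals overlapped (0.0622 to 0.879 and 0.463 to 1.05). P56 was the highest and P18 the lowest of the 3 libraries under each of these settings. Endothelial cells, gated as described below, had the same order, with 65 at P11, 9 at P18 and 362 at P56, and their part in the mural shares was not tested.

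**Figure D1:**
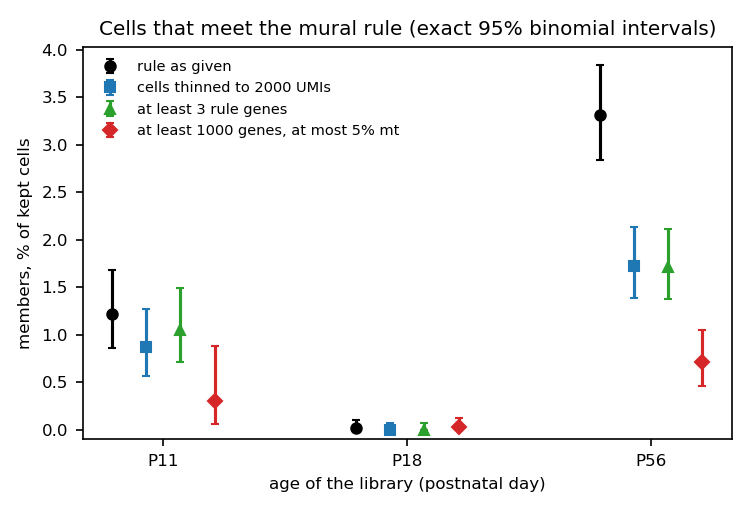
Share of kept cells that met the mural rule (vertical axis, percent) in the P11, P18 and P56 libraries (horizontal axis), under the rule as given and 3 stricter settings; bars are exact 95% binomial intervals. Points at P18 lie at or near 0, and those at P56 lie above those at P11. The P11 and P56 intervals overlap with at least 3 rule genes, and under the setting of 1000 genes and 5% mitochondrial (mt) counts.

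The exclusion genes and the thresholds shaped the membership. Before the exclusion, 55, 1 and 227 cells met the rule at P11, P18 and P56. At P11 and P56, 10 and 31 of them held a UMI of Cdh5, 11 and 27 one of Tnmd, and 2 and 0 one of Ptprc. Just inside the rule, with exactly 2 genes reaching 2 UMIs and at least 1 of these at exactly 2, lay 3, 1 and 34 members. Just outside it, with 1 gene at 2 or more UMIs and another at 1, lay 8, 1 and 41 cells. Members had medians of 10618 UMIs at P11 and 5781 at P56, against 13518 and 6146 over all kept cells. Their median mitochondrial share was 8.19% and 7.13%, against 5.51% and 3.89%. The libraries shared 4 to 9 cell barcodes pairwise, of which 1 belonged to a member, and 1 member at P11 and 7 at P56 were among the highest doublet scores.

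Of the 4 marker genes given for mural cells, Rgs5, Notch3 and Myh11 belong to the rule, and Acta2 does not. Summed counts are given per 1000000 UMIs of the members (CPM) at P11 and P56, against all other kept cells of the same library. Acta2, smooth muscle actin, was at 3247 and 10167 CPM against 147.5 and 289.9. Of genes outside the rule, Actg2 (a second smooth muscle actin) stood furthest apart, at 164 and 189.8 CPM against 0.802 and 0.688. Next came Higd1b (235 and 254 against 1.98 and 2.41) and Vtn, vitronectin (232.5 and 344 against 2.43 and 3.52), both widely used pericyte markers. The potassium channel gene Kcnk3, Parm1, Colec11, Olfr558, Cnn1 (calponin) and Map3k7cl were the others outside the rule among the 12 genes with the highest ratios, which also held the rule genes Kcnj8, Abcc9 and Notch3. The lowest of the 12 ratios was 46.96, for Map3k7cl. These ratios follow from choosing cells by co-expressed genes and were not tested.

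Markers of other cell types were low in the members as a whole but not in each of them. Cdh5, Ptprc and Tnmd, of the endothelial, leukocyte and tendon marker lists, were at 0 by the rule, so these lists are low in part by selection. Of 8 endothelial markers, 3 were detected at P11 (19 UMIs in all) and 6 at P56 (66 UMIs), and Pecam1 was at 0 at P56. They made up 0.00421% and 0.00639% of member counts, against 0.632% and 0.452% in 65 and 362 endothelial-gated cells. These were other kept cells with 2 or more UMIs of at least 2 of Pecam1, Cdh5, Kdr, Emcn and Tie1, and no UMI of Ptprc or Tnmd. Their level of these markers thus follows in part from the gate. Leukocyte markers summed to 4 and 5 UMIs. Connective-tissue fibroblast markers held 0.104% and 0.125% of counts, with up to 2.145% and 2.61% in a single member. Chondrocyte markers held 0.7935% at P11, and 1 member of 48897 UMIs held 7.29% of its own counts in them. Skeletal muscle fibre markers summed to 14 and 617 UMIs, with 5.10% of the counts of 1 P56 member. In all, 2 members at P11 and 8 at P56 had over 1% of their counts in markers of another type, and several results that rest on them are given with and without them.

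The only P18 member had 3460 UMIs and met the rule through Rgs5 (26 UMIs) and Kcnj8 (2 UMIs). It held 4 UMIs each of Higd1b and Pdgfrb, 7 of Steap4, 14 of Ebf1 and 36 of Mgp, and no UMI of Notch3, Myh11 or Acta2. Endothelial, leukocyte, tendon, fibroblast and chondrocyte markers were all at 0 in it, Cdh5, Ptprc and Tnmd by the rule. The P18 library also held 9 endothelial-gated cells, and leukocyte markers made up 3.13% of the counts of its other cells, against 0.272% at P11 and 0.000767% at P56. Its single member enters no comparison below.

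At the level of single cells, the P11 and P56 members combined the rule genes differently. Rgs5 ranged from 0 to 196 UMIs per member at P11 (median 45.5) and from 0 to 87 at P56 (median 10). Myh11 ranged from 0 to 18 UMIs at P11 (median 2.0) and from 0 to 75 at P56 (median 7.0). The ranges overlapped for both genes. At P11, 10 of 36 members held 2 or more UMIs of all 5 genes and 9 held all but Myh11. At P56, 5 of 170 members held all 5, while 42 held Rgs5, Notch3 and Myh11 alone, 41 held Notch3 and Myh11, and 20 held Rgs5 and Myh11. Myh11 at 2 or more UMIs was found in 22 of 36 members (61.1%) and 128 of 170 (75.3%), and Kcnj8 or Abcc9 at 2 or more UMIs in 27 of 36 (75%) and 62 of 170 (36.5%). Both conditions held in 15 of 36 members (41.7%) at P11 and 25 of 170 (14.7%) at P56.

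Because P11 members held more UMIs, the same shares were taken after thinning each member to 2000 UMIs, which kept 34 members at P11 and 153 at P56 and left out 2 and 17 with fewer. Myh11 then had a UMI in 32.35% of P11 members and 79.7% of P56 members. Unthinned shares were 72.2% and 82.9%, and 4.615% and 6.91% in endothelial-gated cells. Kcnj8 had a UMI in 41.2% and 20.9% of thinned members (77.8% and 36.5% unthinned, 6.15% and 4.42% in endothelial-gated cells). Myh11 without Kcnj8 or Abcc9 was seen in 7 of 34 thinned members at P11 and 103 of 153 at P56. Kcnj8 or Abcc9 without Myh11 was seen in 16 of 34 and 21 of 153, and both together in 4 of 34 and 19 of 153. These are genes of the rule, so the shares describe the members and test nothing. The limit of 2000 UMIs also fell unevenly at P56. Members without Myh11 had a median of 2098 UMIs there, against 6765 in those with 2 or more Myh11 UMIs. The thinned P56 shares thus lean to members with Myh11. Acta2, outside the rule, had a UMI in 95.4% of thinned P56 members and 91.8% of all P56 members unthinned.

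Contractile genes outside the rule took a larger median share of UMIs in members with Myh11 at both ages, and pericyte-associated genes a smaller one at P56. A list of 20 contractile genes (Acta2, Tagln, Cnn1 and other parts of the smooth muscle contractile apparatus) made up a median of 1.38% of UMIs in P11 members with 2 or more Myh11 UMIs (range 0.344 to 4.795) and 0.680% in those without Myh11 (0.0825 to 3.29). At P56 the medians were 3.70% (0.359 to 9.255) and 0.715% (0.0766 to 2.85). A list of 16 pericyte-associated genes (among them Pdgfrb, Vtn, Higd1b and Steap4) had medians of 0.444% and 0.449% at P11, and 0.262% and 0.821% at P56. Across single members, the contractile and pericyte-associated shares had a Spearman correlation of 0.21 over 36 members at P11 and of -0.66 over 170 members at P56, which is a description, since members share a library. Among the 153 P56 members with at least 2000 UMIs it was -0.59. At P56 the contractile share also correlated with a member's UMIs (0.54) and the pericyte-associated share did so inversely (-0.55), and the part of depth in the pattern was not tested.

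**Figure D2:**
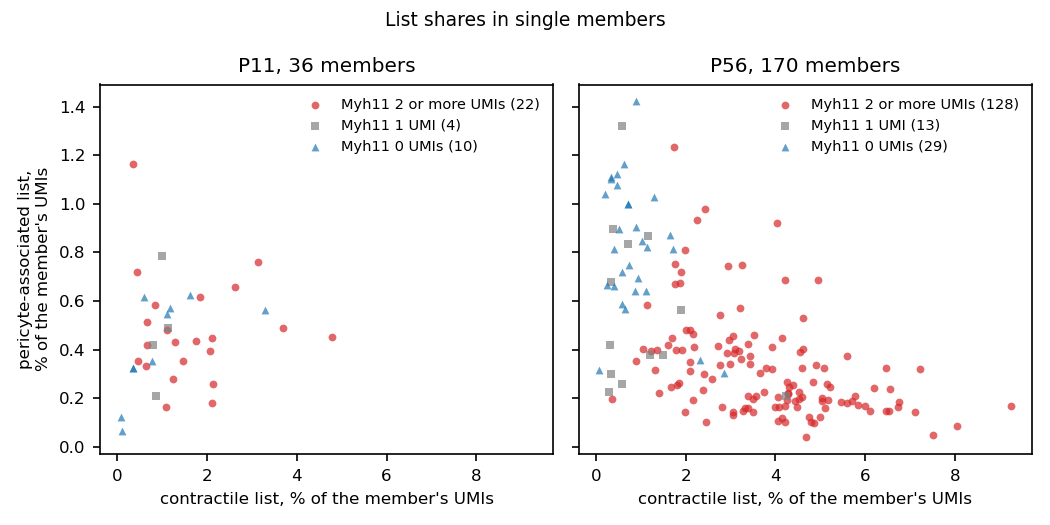
Each point is 1 member, with the percent of its UMIs in the contractile list (horizontal axis) and in the pericyte-associated list (vertical axis), at P11 (36 members) and P56 (170 members), by Myh11 UMIs. At P56 most members without Myh11 lie at the upper left and those with 2 or more UMIs spread along the contractile axis to 9.255%, while at P11 the groups overlap.

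To compare members by Myh11, counts were summed in each library over members with 2 or more UMIs of Myh11 (22 at P11, 128 at P56) and over those with none (10 and 29). Myh11 belongs to the rule, and a member without it could enter only through 2 of Rgs5, Notch3, Kcnj8 and Abcc9. The rule thus shaped both groups, and its part in the differences of contractile and pericyte-associated genes was not tested. Median depth was 10292 and 10860 UMIs at P11 and 6765 and 2098 at P56. Contractile genes leaned to the members with Myh11 in both libraries, but no gene passed the test. With edgeR's quasi-likelihood test and the library as a term, 0 of 3223 genes (0%) were called at an adjusted p of 0.05, and 174 had an unadjusted p under 0.05. The fit has 1 residual degree of freedom. DESeq2 on the same sums called 10 genes. Crispld2, Ptp4a3, Eln, Acta2 and Tagln were higher with Myh11, and Ly6a, Rgcc, Lum, Gpx3 and Cxcl10 lower.

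Acta2 showed the contractile pattern, at 4022 CPM in P11 members with Myh11 and 2065 without, and at 11460 and 1349 at P56 (log2 difference 2.07, SE 0.52, adjusted p = 0.5562 by edgeR). Tagln, an actin-binding protein, was at 2403 against 1017 CPM at P11 and at 9889 against 1621 at P56 (1.98, SE 0.38, adjusted p = 0.3793). Actg2 was at 248.5 against 22.4 CPM at P11 and 209.8 against 13.0 at P56, the low sides being 3 UMIs and 1 UMI. Of the 16 contractile genes tested, 15 had a positive log2 difference (median 1.43), against 51.9% of all genes tested (median 0.02). In both libraries separately, 14 of 16 were positive, against 25.2% of all genes. The exceptions were Smtn (smoothelin), at -0.99 in P11, and Casq2 (calsequestrin), at -1.585 in P56. The P11 sum without Myh11 came from 10 members with 133672 UMIs. Of these UMIs, 1 member held 35204, with 0.117% of its own counts in the contractile list. Another, of 12123 UMIs, had 0.0825% in the list and 0 UMIs of Acta2. The part of these members in the P11 differences of contractile genes was not tested.

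Other genes with low p-values followed Myh11 in both libraries. Crispld2, a secreted protein, had 34 UMIs against 1 at P11 and 2281 against 14 at P56 (log2 difference 3.89, SE 0.43, adjusted p = 0.1762 by edgeR). Eln, elastin, was at 3517 against 606 CPM at P11 and at 111.6 against 13.0 at P56, the last being 1 UMI. Ramp1, a partner of the receptor for calcitonin gene-related peptide, had 44 and 285 UMIs with Myh11 and 0 in both groups without it, so it was at least 7.38-fold and at least 8.17-fold higher. The Notch target Nrip2 was at 67.8 against 7.48 CPM at P11 and 184 against 25.9 at P56 (2.98, adjusted p = 0.3939 by edgeR). Without Myh11 it had 1 UMI at P11 and few at P56. Genes on the side without Myh11 included fibroblast markers. Lum had 7 against 72 UMIs at P11 and 12 against 8 at P56 (-3.63, adjusted p = 0.2641 by edgeR), and Ly6a had 0 against 36 and 23 against 27. All 72 UMIs of Lum lay in 1 P11 member, with 2.145% of its counts in fibroblast markers. Another P11 member held 31 of the 36 UMIs of Ly6a. All 6 connective-tissue fibroblast markers tested had negative differences in the joint fit (median -2.59), against 48.1% of all genes. In the libraries taken separately, 4 of the 6 were negative in both, against 27.3% of all genes, and 2 were positive at P56. Without the members that had over 1% of their counts in other cell types' markers, Lum had too few counts to be tested. The values of Ly6a and of the 6 markers are given with these members only, and such members' part in the difference was not tested otherwise.

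In summed counts, pericyte-associated genes went with Myh11 at P11 and against it at P56. At P11, 13 of 14 had a positive log2 difference (median 1.01), against 1559 of 3223 genes in all, and at P56 4 of 14 (median -0.62), against 1594 of 3223. The P11 direction was not seen in the median share of single members, 0.444% with Myh11 and 0.449% without. Of the 133672 UMIs summed without Myh11 at P11, 1 member held 35204. Its own share of the list was 0.0653%, and its part in the P11 values was not tested. Steap4, a metalloreductase, was at 324 CPM with Myh11 and 142 without at P11, and at 379 and 2153 at P56. Vtn was at 301 and 119.7 CPM at P11 and at 282 and 895 at P56. Pdgfrb was at 508 and 322 CPM at P11 and at 181 and 493 at P56. The rule genes Abcc9 (361.5 and 217 CPM at P11, 71.4 and 1012 at P56) and Rgs5 (6157 and 2962, then 1570 and 6900) are given as description only. The difference between the libraries was not tested, since each library gives 1 pair of sums. Cspg4, which encodes the NG2 proteoglycan often used to mark pericytes, was on the Myh11 side in both (75.3 against 22.4 CPM, then 103.8 against 51.9). The sums without Myh11 held few UMIs of it.

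**Figure D3:**
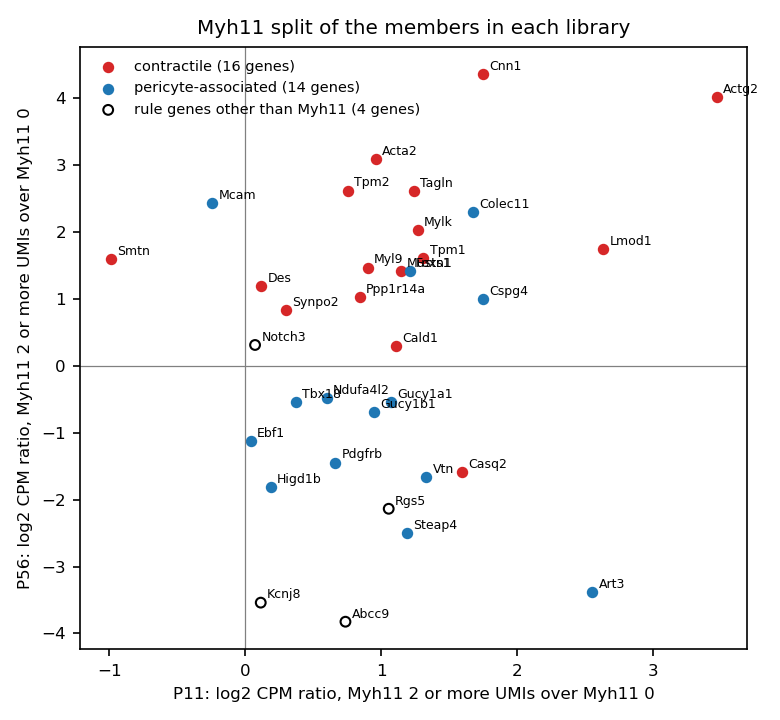
Log2 ratio of summed CPM between members with 2 or more Myh11 UMIs and members with none, at P11 (horizontal axis) and P56 (vertical axis), for the tested contractile and pericyte-associated genes and the other 4 rule genes (open circles, not tested). Contractile genes lie in the upper right, 14 of 16, while Rgs5, Kcnj8, Abcc9, Vtn, Pdgfrb and Steap4 lie to the right of 0 and below it.

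The second comparison set the members of P56 against those of P11. Without a test, a gene was counted as changed by size when its CPM differed 4-fold or more, among genes with at least 100 UMIs over both. Of 2148 such genes, 162 were higher at P56 (7.54%) and 77 lower (3.58%). Scaling by relative log expression in place of total counts shifted every log2 ratio by 0.41 and gave 231 higher and 47 lower, so 83.1% in place of 67.8% of the changed genes were higher. Leaving out the 10 members with markers of other types gave 149 (7.58% of 1965 genes) and 58 (2.95%), of which 138 and 56 were among the first. In 5 of the genes counted higher and 13 of those counted lower, 1 member held over 50% of a library's UMIs.

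Contractile genes were higher at P56. Of 15 with enough counts, 15 had a positive log2 ratio under both scalings (median 1.26), against 47.3% of all genes higher and 52.7% lower, and 3 passed 4-fold (5 under the other scaling). Tagln was at 1792 CPM at P11 and 8820 at P56 (log2 2.30, 95% exact interval 2.20 to 2.405), and Cnn1 at 44.3 and 231.5 (2.39, 1.73 to 3.12). Tagln had a median of 14.0 UMIs per member at P11 (0 to 102) and 45.5 at P56 (0 to 240), so the ranges overlapped. Pln, phospholamban, which regulates calcium uptake into the sarcoplasmic reticulum, had 0 UMIs at P11 and 198 in 62 of 170 members at P56, at least 28.9-fold higher. Under the stricter cell limits, with 3 members at P11, that lower limit was log2 0.17, so 4-fold could not be reached or excluded. Acta2 (3247 and 10167 CPM), Tpm2 and Mustn1 were higher by 1.65, 1.78 and 1.55, under the size rule, and Actg2 by 0.21. In members with Myh11 alone the list's median was 1.15, and in members without Myh11 it was 0.58, where Acta2 (-0.61), Tpm2 (-0.14) and Des (-0.30) were lower at P56. Myh11 itself, a rule gene, was at 297 and 2257 CPM (log2 2.93). Other kept cells had a median of 1.83 over these genes and endothelial-gated cells one of 0.38, so the direction was not found in the members alone.

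The CArG box, which the serum response factor binds, is the best known element of smooth muscle promoters, so the proximal promoters of these genes were searched. The RefSeq table (GRCm38.p6) held an entry for 17 of the 21 genes (the contractile list and Myh11), with 18 promoters. In the 250 bases before the start, 1 of 18 promoters held a CArG box with an unbroken A/T core (5.56%), against 1.47% of 32851 promoters. Allowing 1 C or G in that core as well, 2 of 18 did (11.1%), against 8.59%, a share near the background. The pattern is its own reverse complement, so both strands are covered. The 2 promoters were those of Acta2 and Myl9, the smooth muscle myosin light chain, and they are shown 5' to 3' on the gene's strand because both genes were among the higher ones at P56 (Myl9 at 1234 and 2963 CPM). Capitals mark the matches, which start 84 and 34 bases before the start of Acta2 and 161 and 99 bases before that of Myl9. The first Myl9 match has an unbroken core and the other 3 have 1 C or G in it.
Acta2, chr19:34255374-34255487, minus strand: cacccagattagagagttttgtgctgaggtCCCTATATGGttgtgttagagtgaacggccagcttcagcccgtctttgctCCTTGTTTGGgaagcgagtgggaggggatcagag
Myl9, chr2:156775273-156775404, plus strand: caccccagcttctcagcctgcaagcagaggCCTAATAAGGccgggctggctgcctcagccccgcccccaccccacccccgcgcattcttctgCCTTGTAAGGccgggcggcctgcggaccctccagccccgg

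Pericyte-associated genes had no common direction between the ages. Of 12 with enough counts, 6 were higher and 6 lower at P56 (median 0.01), none by 4-fold, and 8 and 4 under the other scaling. Pdgfrb was at 458 CPM at P11 and 216 at P56 (log2 -1.09), Steap4 at 272 and 549 (1.01), Vtn at 232.5 and 344 (0.56) and Higd1b at 235 and 254 (0.11). Among the rule genes, Rgs5 was at 5156 and 2196 CPM (-1.23), Kcnj8 at 392 and 146 (-1.42), Abcc9 at 321 and 165 (-0.96) and Notch3 at 624.5 and 448 (-0.48). These values differed between the members with and without Myh11. Among members with Myh11, Kcnj8 differed by -2.39 and Abcc9 by -2.34, while among members without Myh11 they differed by 1.26 and 2.22. A member without Myh11 had to hold 2 or more UMIs of 2 of Rgs5, Notch3, Kcnj8 and Abcc9. Such members had a median of 10860 UMIs at P11 and 2098 at P56, so that minimum was a larger share of counts at P56. The part of the rule and of depth in these values was not tested. Cspg4 was lower in members than in other kept cells at P11 (53.15 and 79.5 CPM) and higher at P56 (97.8 and 68.5).

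Matrix genes were lower at P56. In the fibrillar and elastic list 10 of 11 genes were lower by 4-fold or more (median log2 -2.44), and 7 under the other scaling (median -2.03). Eln was at 2516 CPM at P11 and 99.8 at P56 (-4.66, -4.96 to -4.36). It had a UMI in 27 of 36 members at P11 (0 to 261 UMIs, median 8.0) and 47 of 170 at P56 (0 to 12 UMIs, median 0). Under the stricter cell limits, with 3 members at P11, Eln (-1.57), Fbn1 (-0.86), Col5a2 (-1.495) and Col6a1 (-1.59) were no longer lower by 4-fold. Col3a1 was at 7722 and 637 CPM (-3.60), found in 36 of 36 and 93 of 170 members. Col1a1 was at 2334 and 339 CPM (-2.78), well below the other kept cells at both ages (40482 and 3844). Mgp, an inhibitor of calcification, was the exception, at 4011 and 1366 CPM (-1.55), where other kept cells had 1949 and 5370. Other kept cells had a median of -1.507 over these genes and endothelial-gated cells one of -1.23, so lower matrix levels at P56 were common to the 3 groups of cells, and the part of RNA released from other cells was not tested.

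Of 8 basement membrane genes with enough counts, 2 passed 4-fold, Col4a1 (3530 and 874.5 CPM, -2.01) and Nid1 (nidogen, 394 and 92.0, -2.10), and 0 did so under the other scaling. Under the stricter cell limits the values were -1.34 for Col4a1 and -0.83 for Nid1. The list's median was -1.25, against -0.24 in other kept cells and -1.70 in endothelial-gated cells. Lamb2, a laminin chain, went the other way (137 and 345 CPM, 1.33). Each P11 member held Col4a1 (2 to 163 UMIs, median 37.0), and 156 of 170 P56 members did (0 to 116, median 3.0).

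**Figure D4:**
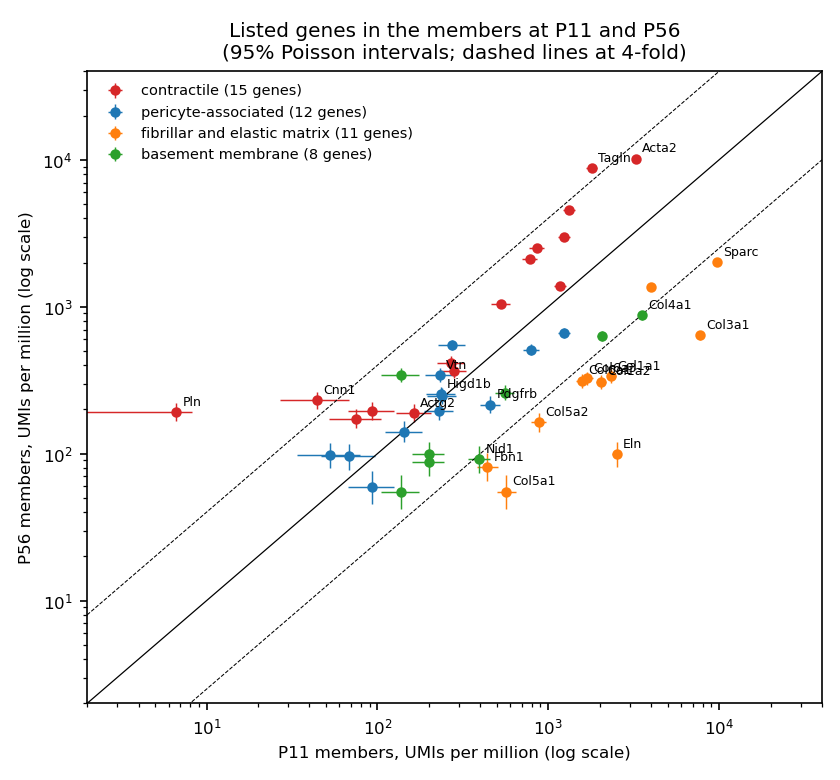
CPM of listed genes summed over the members of P11 (horizontal axis) and P56 (vertical axis), both on log scales, with exact 95% Poisson intervals; dashed lines mark a 4-fold difference, and Pln, at 0 UMIs in P11, is drawn at its 3-count limit. Contractile genes lie above the diagonal, fibrillar and elastic genes below the lower dashed line except Mgp, and pericyte-associated genes between the lines.

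Receptors for vasoactive signals differed in both directions. Ednrb, the endothelin B receptor, had 1 UMI at P11 and 231 UMIs in 57 of 170 members at P56, a ratio of 101 (log2 6.66, 4.17 to 11.97). The ratio rests on that 1 UMI. It was 3.485 on the log2 scale under looser cell limits (200 genes, 20% mitochondrial), 0.55 and under 4-fold under the stricter ones, and 4.94 without the richest member of each library. The values 0.55 and 4.94 are lower limits, with 0 UMIs at P11 set to 3 counts. In other kept cells it was lower at P56 (38.3 and 5.11 CPM), and in endothelial-gated cells it was at 65.5 and 36.6. Within P56 it was higher in members without Myh11 (1012 CPM) than with it (143 CPM), and its difference in the Myh11 test was -2.54 (adjusted p = 0.6357 by edgeR). Ednra, the endothelin A receptor, was at 139.5 and 114 CPM. Their ligand gene Edn1 was at 0 UMIs in members of both ages, and at 52.4 and 91.7 CPM in endothelial-gated cells. Avpr1a, a vasopressin receptor, had 7 and 113 UMIs (log2 2.82), and Adra2a, an adrenergic receptor, was lower at P56 (188 and 19.4 CPM, -3.28). Of 20 receptors on the list 4 had enough counts, 2 being higher and 1 lower by 4-fold. S1pr3, a sphingosine 1-phosphate receptor (57.6 and 327 CPM, 2.51), and Rcan2, a calcineurin regulator (37.65 and 278, 2.88), were higher as well, S1pr3 by 0.76 under the stricter limits. The rise of S1pr3 was not found in the members alone, with log2 2.79 in endothelial-gated cells and 1.35 in other kept cells.

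Ligands and receptors of the vessel wall were divided between members and endothelial-gated cells. Pdgfb had 4 and 5 UMIs in members and was at 191 and 78.6 CPM in endothelial-gated cells, while Pdgfrb was at 458 and 216 CPM against 45.8 and 16.3. Dll4 had 0 UMIs in members at both ages and was at 96.9 and 46.5 CPM in endothelial-gated cells. Jag1 was found in both, at 115 and 62.0 CPM in members and 111 and 37.9 in endothelial-gated cells. Among Notch targets, Heyl was at 59.8 and 59.1 CPM in members against 5.24 and 3.16, and Hes1 at 571 and 307 against 1353 and 448. Nrarp (53.15 and 160 CPM) and Nrip2 (48.7 and 164) were higher at P56 by 1.59 and 1.75, under 4-fold, and 0 of the 3 targets with enough counts passed it (1 under the other scaling). The angiopoietin receptor Tek had 0 and 2 UMIs in members, and its ligand Angpt1 was at 24.4 and 13.6 CPM. Pdgfa, whose receptor Pdgfra had 7 and 14 UMIs in members, was at 403 and 813.5 CPM, and Cxcl12 at 263.5 and 263. The channel genes Kcnj11 and Abcc8, which form the pancreatic counterpart of the Kcnj8 and Abcc9 channel, had 0 and 1, and 0 and 4 UMIs.

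**Figure D5:**
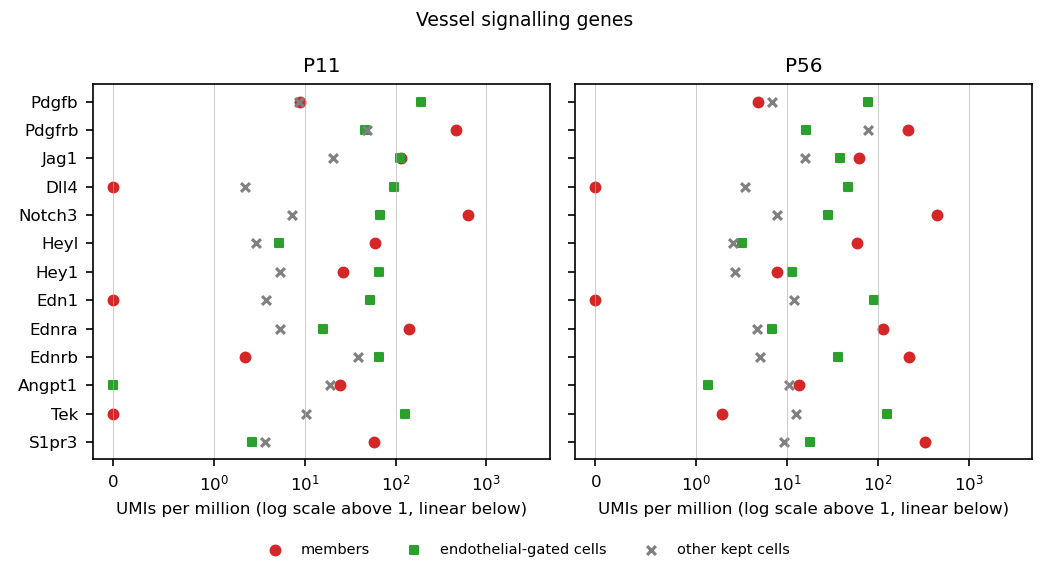
Summed CPM (log scale above 1, linear below) of vessel ligands, receptors and targets at P11 and P56 in members (circles), endothelial-gated cells (squares) and other kept cells (crosses). Pdgfrb, Notch3, Heyl, Ednra and S1pr3 are highest in members at both ages and Pdgfb, Dll4, Edn1 and Tek in endothelial-gated cells, while Ednrb lies at 2.215 CPM in P11 members and 224 in P56 members.

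Of the cell cycle list, 2 of 10 genes had enough counts and both were lower at P56 by 4-fold, as were 2 of 4 such fetal and neonatal growth genes (1 under the other scaling). Dlk1, a Notch-related protein of immature cells, had 657 UMIs in 31 of 36 members at P11 and 6 UMIs in 3 of 170 at P56 (log2 -7.97, -9.42 to -6.84). The difference was -5.64 in other kept cells. Meg3, an imprinted RNA from the same locus, was at 3636 and 759 CPM (-2.26), but it did not pass 4-fold under the other scaling (-1.85) or the stricter cell limits (-1.17). Top2a had 104 UMIs in 27.8% of P11 members and 3 at P56, and Ube2c had 102 and 0. Mki67 (75 and 5 UMIs) and Cdk1 (76 and 0) were under the 100-UMI minimum. Other kept cells also held less of these 4 cell cycle genes at P56. 
Signalling and metabolic genes of the lists mostly stayed within 4-fold. Of 7 contraction signalling genes with enough counts, Rcan2 alone passed it. Rock1, a kinase that sustains contraction, was at 257 and 480 CPM, Pde5a, which breaks down cyclic GMP, at 97.4 and 106, and the gap junction gene Gjc1 at 246 and 125. Of the RGS family outside the rule, Rgs4 was at 124 and 295 CPM (log2 1.25) and Rgs16 at 613 and 229 (-1.42), both of them relatives of Rgs5. Of 9 metabolic genes, Lpl, lipoprotein lipase, passed 4-fold (684 and 126 CPM, -2.44), but not under the stricter cell limits (-0.52). Ckb, creatine kinase B, was at 179 and 645 CPM (past 4-fold under the other scaling), and Fabp4, a fatty acid carrier, at 726 and 881, where endothelial-gated cells had 9956 and 6189.

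Inflammatory and early-response genes varied widely. Of 9 chemokine and cytokine genes, 4 were higher at P56 by 4-fold and 0 lower: Ccl2 (306 and 3118 CPM), Ccl7 (148 and 670.2), Ccl11 (68.65 and 1026) and Il6 (119.6 and 1241). Single members ranged from 0 to 36 UMIs of Ccl2 at P11 and from 0 to 214 at P56, with a UMI in 19 of 36 and 78 of 170. The list's median was 1.44 on summed counts and 0.17 when each member's CPM counted equally, and 2.33 in other kept cells. Among 12 immediate-early and stress genes, Fos (2748 and 606 CPM), Egr1 (1092 and 236) and Hspa1b (356.5 and 65.9) were lower by 4-fold, and Junb was higher (1353 and 3767, log2 1.48). Under the other scaling Fos (-1.77) and Egr1 (-1.80) no longer passed 4-fold, and under the stricter cell limits Egr1 (-1.99) and Hspa1b (-1.83) did not. The median of that list changed sign between the scalings (-0.13 and 0.28), and it was 0.05 without the 10 members that had markers of other types. Those members mattered less for the lists above, whose medians without them were 1.21 (contractile), -2.74 (fibrillar and elastic), -1.27 (basement membrane) and 1.34 (chemokine and cytokine).

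The remaining genes of the size ranking fell into 3 kinds. Crem (8 and 696 UMIs), a cyclic AMP responsive factor, and Hmox1 (5 and 388), which breaks down haem, were higher at P56 by log2 5.25 and 5.09. Crispld2 (37 and 2310) and the predicted genes Gm13889 (124 and 7310) and Gm13861 (1 and 116) were higher by 4.77, 4.69 and 5.67. In the same order, these genes were higher in other kept cells too, by 0.99, 2.62, 1.10, 2.62 and 5.19. In endothelial-gated cells they were higher by 1.34, 4.25, 5.93, 2.88 and 2.27. Crispld2 and Gm13861 each had 1 UMI in endothelial-gated cells at P11. Mylpf, a fast muscle light chain, rested on 1 P56 member with 98.1% of its UMIs. Col2a1 (3038 and 1 UMIs), 3110079O15Rik, Col11a1, Matn1, Col9a3 and Col9a1, most of them cartilage matrix genes, rested on the 1 P11 member with chondrocyte markers, which held 99.6% of the Col2a1 counts. Without it Col2a1 had 13 UMIs at P11. Xist, the RNA of the inactive X chromosome, had 374 UMIs at P11 and 0 at P56, at least 285-fold lower, and its difference in other kept cells was -11.4. The sex of the mice is not given in the labels, and sex and age cannot be told apart here.

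On the plates titled as Gli1 lineage no well met the rule. The labels' wording of the sort leaves unclear whether red or non-red cells were collected, so the wells cannot be taken as cells of that lineage. Of 672 wells 647 passed the same limits, and 0 of 647 were members, with an exact upper limit of 0.5685% (the limit that 3 counts give is 0.464%). All 647 wells together held 100 counts of Rgs5, 18 of Myh11, 13 of Notch3, 14 of Abcc9 and 8 of Kcnj8. Before the exclusion genes were applied, 3 wells met the gene rule, and each was removed by Tnmd or Cdh5. Tnmd alone was present in 406 of the 647 wells (62.75%). Gli1 itself had 2 UMIs in the P11 members and 5 in the P56 members of the whole-enthesis libraries.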

How the data were processed

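The deposited droplet files held whole-number UMI counts per gene and cell, and the plate files whole-number counts per gene and well, with no normalization found in the values. The genome build was mm10, per the submitters' processing notes. The droplet matrices carry software version 3.1.0 (P11, P18) and 3.0.2 (P56), per the file headers, and the aligner and filters are not given in the sources used here. Libraries held 44104990, 53725468 and 40082499 counts in 3263, 5588 and 5520 barcodes at P11, P18 and P56, and members 451556, 3460 and 1032546.

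Members were summed per library and expressed per 1000000 UMIs, with exact Poisson 95% intervals and exact conditional intervals for ratios. A count of 0 was set to 3 counts for a bound, and no ratio was formed where both counts were 3 or fewer. Gene lists covered 271 of 272 symbols, since Ccl19 could not be matched. The Myh11 comparison used edgeR 4.0.16 (R 4.3.3), with Benjamini-Hochberg adjustment at 0.05, and DESeq2 1.42.0 as an alternative. Adjusted p-values in the text are from edgeR. Standard errors are the log2 difference over the square root of the test's F. The procedures were tested on simulated data. Doublets were scored with scrublet in scanpy 1.11.5. Its own threshold marked 0.0339%, 1.00% and 0.0780% of cells, so the highest scores were taken at a rate of 0.8% per 1000 cells. They were kept in the main results and left out in an alternative. Named genes were those of the lists, the 8 largest differences in each direction between the ages, and the 12 highest ratios over other cells. No gene was called in the Myh11 comparison, so Ptp4a3, Ramp1, Rgcc, Gpx3 and the value of Crispld2 there were chosen after their values were seen. The members and all lists were chosen with earlier results of these data known.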

Additional observations from a re-analysis of the deposited data

Results flagged for a closer look

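Several results of the Myh11 comparison had opposite signs in the libraries, and the difference was not tested for any of them, since each library gives 1 pair of sums. Over the pericyte-associated list the median log2 ratio of members with 2 or more Myh11 UMIs over members with none was 1.01 at P11 and -0.62 at P56, and over the chemokine and cytokine list it was 0.63 and -1.14. These ratios are of summed counts. The median pericyte-associated share of single P11 members was 0.444% with Myh11 and 0.449% without. Abcc9 had 0.74 at P11 and -3.82 at P56, Rgs5 had 1.055 and -2.14, Vtn had 1.33 and -1.66, and Pdgfrb had 0.66 and -1.45. Abcc9 and Rgs5 belong to the rule that chose the members.

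Mural genes also had counts on the plates titled as Gli1 lineage, which the comparisons of the report do not use. The P7 plate held 57 counts of Rgs5, all in 1 well. The P11 plate held 32 counts of Rgs5 in 4 wells, and the P21 plate 16 counts of Myh11 in 8 wells. No control wells were analysed here, and it is not given in the sources used here whether molecular identifiers entered the plate counts.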

How the results depend on the processing

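Of the values that answer a comparison, 33 alternatives stayed within the limits set for a change and 24 did not. The number of genes with enough counts also differed between settings. In the main setting, 162 of 2148 were higher and 77 lower at P56. The counts were 53 and 24 of 370 genes under the stricter cell limits of the report. They were 93 and 44 of 1395 with 3 rule genes, and 24 and 23 of 307 in members without Myh11. With 50 UMIs they were 251 and 147 of 3885, and with 200 UMIs 87 and 41 of 1073. Of the 2148 genes, 386 and 252 passed at 2-fold, and 231 and 47 with relative log expression scaling. The mural shares of kept cells at P11 and P56 were 0.302% and 0.715% under the stricter limits. Under looser ones (200 genes, 20% mitochondrial) they were 1.895% and 4.10%. The P56 share was 4.17% with 1 UMI of 2 rule genes, 1.715% with 3 rule genes and 1.73% after thinning, the P18 share being 0 under both of the last. In the Myh11 comparison DESeq2 called 10 genes and edgeR without a filter on low counts 67, while the fit with no replicate block (no library term) called 0, with 68 unadjusted p-values under 0.05. Leaving out a library leaves no residual degree of freedom, so no such test was run, and leaving out an age leaves no comparison. Signs changed for Gm13861 (-0.83 with the stricter cell limits), Acta1 (-0.19 with 3 rule genes, -0.27 without doublets, -0.30 without members with other cell types' markers), Lum between the ages (2.40 without those members, 0.36 without its richest member), Col2a1 (0.38 in members without Myh11) and Vtn (0.0231 in the Myh11 comparison without a filter). For Col2a1 the value is an upper limit, from 4 UMIs at P11 and 0 at P56 set to 3 counts. For Gm13861 it is a lower limit, with 0 UMIs at P11 set to 3 counts. Neither value shows a change of sign. A single P11 member held 72 UMIs of Lum. The cause of the other changes was not tested. The alternatives on other cell types' markers, on members by Myh11, on single members and on thinning to 1000 UMIs were chosen after seeing the data. Members number 36 at P11 and rest on 1 library per age, which limits each comparison between ages.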

Other observations

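The 3 plate wells that met the gene rule before the exclusion differed in what they held. The P7 well had 5129 counts, with 57 of Rgs5, 3 of Notch3, 2 of Abcc9, 10 of Pdgfrb and 1 of Tnmd. The P11 well had 1688 counts, with 29 of Rgs5, 2 of Kcnj8, 3 of Abcc9, 3 of Vtn and 5 of Tnmd. The P21 well had 2577 counts, with 9 each of Rgs5 and Myh11, 11 of Acta2, 3 of Tagln and 1 of Cdh5. None of the 3 held a count of Gli1, of which all 647 wells had 27.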
